A study of Mus musculus with 4 samples.

Results

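Neurotrophin signalling was examined through 8 genes: the ligands Bdnf and Ntf3, the Trk receptors Ntrk2 and Ntrk3, the p75 receptor gene Ngfr, the sorting receptors Sort1 and Sorcs1, and Cntfr, the receptor chain for ciliary neurotrophic factor. Each was read from the probe set that the platform annotation ties to that gene alone, and from the brighter probe set where there were several. This gave values for 7 of the 8 genes, out of 22180 genes in all. Ntf3 had no such probe set in the annotation used here and was not analysed here. Expression was measured on 1 array per tumour in 4 primary neuroblastomas of a study on Stat6 and macrophage polarization. All 4 tumours form 1 group, labelled Alk mutant, TH-MYCN and Stat6-/-, in mice bred from C57BL\6 and 129Sv/J. TH-MYCN places the MYCN oncogene under the promoter of tyrosine hydroxylase, so the transgene is driven in cells of the catecholamine lineage. The labels state neither the Alk mutation, nor the animals' age or sex, nor whether each tumour came from its own animal; the spread between samples may therefore be partly technical. No other genotype was analysed here, so the values describe tumours without Stat6 and how far they differ, and no comparison between conditions is made.

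Neurotrophins are secreted growth factors that keep sympathetic and sensory neurons alive during development. Each mature factor binds a preferred Trk receptor tyrosine kinase, BDNF binding TrkB (Ntrk2) and neurotrophin-3 binding TrkC (Ntrk3), while p75 (Ngfr) binds all of them and, with sortilin (Sort1), their uncleaved precursors. In human neuroblastoma TrkC has been tied to favourable tumours, and TrkB with its ligand BDNF to aggressive tumours with amplified MYCN. The ciliary neurotrophic factor receptor belongs to another family and signals with gp130 and the LIF receptor to JAK kinases and STAT3.

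Of the 7 measured genes, Ntrk3, Sort1, Sorcs1 and Cntfr lay above background, and Bdnf, Ntrk2 and Ngfr lay below it. The level of background was read from 1394 genes of odorant and vomeronasal receptors, which have no known place in neuroblastoma. A gene with a 4-tumour mean above 95% of those genes, a log2 value of 6.17 (the floor), was taken as detected. By this rule 4 of 7 measured genes were detected, against 40.5% of all genes. When every tumour had to exceed the floor of its own array, 3 of 7 were, against 34.2% of all genes, and Ntrk3 was lost. Among the detected genes, Sorcs1 was high in tumour 1 alone, Ntrk3 was high in tumours 1 and 4, Sort1 differed most between tumours 3 and 4, and Cntfr was nearly constant. A range of at least 1 log2 unit (2-fold) was reached by Ntrk3 and Sorcs1, 2 of the 4, and by 4.26% of all detected genes. A range of 0.5 was reached by 3 of the 4 and by 35.1% of all detected genes.

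**Figure D1:**
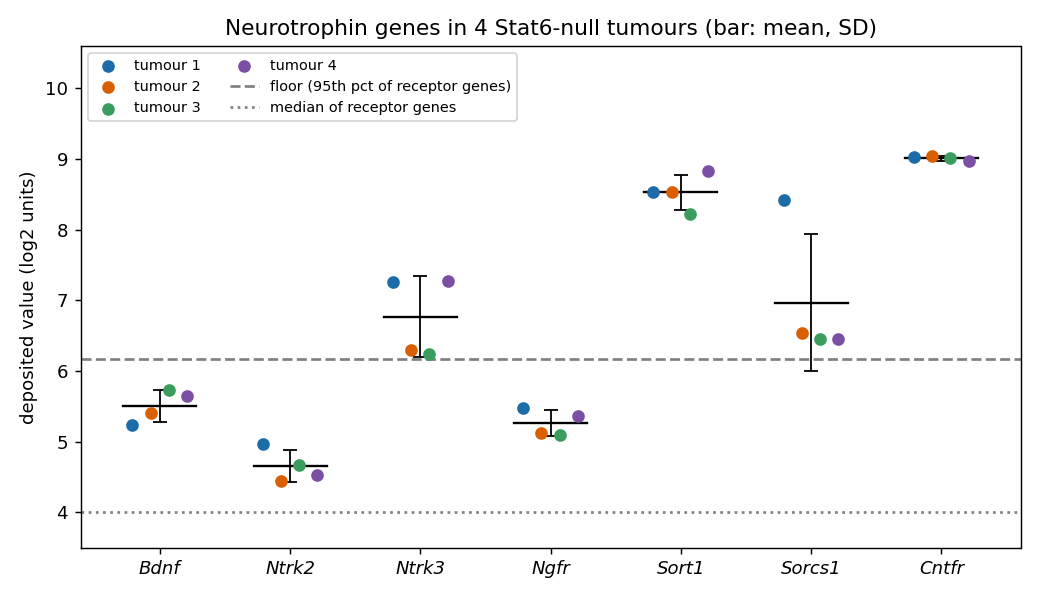
Deposited log2 values of the 7 measured genes in each of the 4 tumours, with the mean (bar) and SD (whiskers); the dashed line is the background floor of 6.17 and the dotted line the median of the receptor genes, 4.01. Sorcs1 reaches 8.42 in tumour 1, with tumours 2 to 4 at 6.45 to 6.53, while the 4 values of Cntfr lie between 8.97 and 9.04. Levels of different genes rest on different probes and are not compared.

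Small offsets between the arrays bear on every value here. Detected genes as a whole deviated from their own means by a median of 0.12, 0.04, -0.09 and -0.08 in tumours 1 to 4, so relative deviations below have this offset subtracted. As many as 46.6% of detected genes had their highest value in tumour 1, 26.9% in tumour 2, 11% in tumour 3 and 15.5% in tumour 4. Of 7 measured sympathetic neuroblast markers all 7 were detected, and of 9 skeletal muscle markers 0 were, against 40.5% of all genes. The label gives sternocleidomastoid muscle as the tissue. Tumour 4 alone carried Xist, transcribed from the inactive X chromosome and picked after its values were known, at 10.13 against 3.89 to 3.95. In RNA from whole tumours, fewer cells of a type and less RNA per cell cannot be told apart. With 1 array per tumour, no error can be attached to the value of a single tumour.

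The 2 ligand genes with a value, Bdnf and Ntf5, gave no signal above background. Bdnf, which supports neurons through TrkB, measured 5.23, 5.41, 5.72 and 5.64 in tumours 1 to 4, a mean of 5.50 ± 0.23 (SD, n = 4, log2 units). All 4 values lay below the floor, and 87.9% of the receptor genes had a lower mean. Its range of 0.49 was met or passed by 24.3% of genes below the floor, so tumour differences of this size were common among genes without clear signal. Ntf5, the mouse gene for neurotrophin-4, measured 3.64 ± 0.08 (SD, n = 4), below the receptor median of 4.01. A value under the floor is undetermined and does not show that a transcript was absent.

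Bdnf is known for several alternative promoters, some of which respond to neuronal activity through the factor CREB. The RefSeq table of GRCm38.p6 gave 7 promoter windows for Bdnf, and the 250 bases before each start were searched on either strand for CGTCA (reverse TGACG), the half-site that CREB binds. A match was present in 1 of the 7 windows and in 17.8% of all 32851 windows in the table. That window, chr2:109692186-109692435 on the plus strand, is shown because it holds the single match, in capitals.
Bdnf promoter: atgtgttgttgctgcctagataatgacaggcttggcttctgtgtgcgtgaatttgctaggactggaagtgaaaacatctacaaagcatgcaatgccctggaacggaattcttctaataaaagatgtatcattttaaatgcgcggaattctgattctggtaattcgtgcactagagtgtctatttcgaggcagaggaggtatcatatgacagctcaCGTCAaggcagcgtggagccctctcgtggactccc
The match is a description of the sequence and says nothing about binding in these tumours, where Bdnf itself was not detected.

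Of the Trk receptors, Ntrk3 was detected and Ntrk2 was not. Ntrk2 measured 4.96, 4.44, 4.67 and 4.53 in tumours 1 to 4 (4.65 ± 0.23, SD, n = 4), and 71.3% of the background receptor genes had a lower mean. Tumour 1 was highest, by 0.29 over tumour 3, all at a level where signal and background overlap. Ntrk2 is known to give a full-length kinase and truncated forms without a kinase, and the sources do not say which of them the probe set reads.

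Ntrk3 divided the tumours into high and low. It measured 7.26 in tumour 1, 6.30 in tumour 2, 6.24 in tumour 3 and 7.27 in tumour 4, a mean of 6.77 ± 0.58 (SD, n = 4). Tumours 1 and 4 were within 0.01 of each other, tumours 2 and 3 within 0.06, and 0.96 log2 units separated the lower of the high values from the higher of the low ones. Differences of 1 log2 unit were passed by Ntrk3 between tumours 1 and 3 and between tumours 3 and 4, and by 1.47% and 1.03% of detected genes. A range as wide as its 1.04 was found in 3.79% of detected genes. The low tumours lay only just above the floor, and in tumour 3 Ntrk3 was below the floor of that array taken alone (6.37), so the difference there is between a clear signal and one near background. As for Ntrk2, kinase and truncated forms could not be separated.

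The division of Ntrk3 did not depend on the array offset. Relative to detected genes it stood at 0.37 in tumour 1, -0.51 in tumour 2, -0.45 in tumour 3 and 0.59 in tumour 4. The Xist-positive tumour 4 and the Xist-negative tumour 1 thus lay on the same side. Without tumour 3 the range was 0.97, just short of 1 log2 unit. The neuroblast markers were also highest in tumour 4, in 7 of 7 genes against 15.5% of all detected genes, with means over the list of 9.96, 9.82, 9.83 and 10.12 in tumours 1 to 4. Their lead over tumour 1 ran from 10.47 against 10.44 for Isl1 to 11.07 against 10.70 for Dbh. Among these markers Stmn2 lies on chromosome 3, which is described below with Sort1. In tumour 1 the median relative deviation of the neuroblast markers was -0.07, where that of Ntrk3 was 0.37. All 6 detected macrophage markers, of 8, were lowest in tumour 3, as were 36.1% of detected genes, with list means of 8.29, 8.25, 7.53 and 8.22. The part of either cell type in the pattern of Ntrk3 was not tested. Dbh, the enzyme that makes noradrenaline, was the detected cell type marker closest to Ntrk3 by the root mean square difference of centred values, at 0.30, and measured 10.28 in tumour 2 and 11.07 in tumour 4. The Schwann marker Gfra3 followed at 0.35 and the macrophage marker Trem2 at 0.36.

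Few genes lay close to Ntrk3 by a measure that also depends on the size of its range. Likeness was measured as the root mean square difference between 2 genes' values over the 4 tumours, each centred on its own mean. Only 2 of 8988 other detected genes came within 0.1 log2 units of Ntrk3. A fixed limit takes in fewer genes as a range widens, with 167 for Sort1 (range 0.61) and 0 for Sorcs1 (1.97). The count of 2 therefore does not show that the pattern is rare. The closest to Ntrk3 were Lhfp, a membrane protein gene, at 0.08, Tmtc1, an endoplasmic reticulum protein gene, at 0.09, and Sox6, a transcription factor of neural and other lineages, at 0.11. In tumours 2 and 3 Lhfp (5.96 and 5.92) and Sox6 (5.54 and 5.65) were below the floor, so they count as detected through tumours 1 and 4. The 3 genes lie on chromosomes 3, 6 and 7 in RefSeq, and Ntrk3 on 7. Closeness over 4 tumours is a description of these arrays and was not tested.

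**Figure D2:**
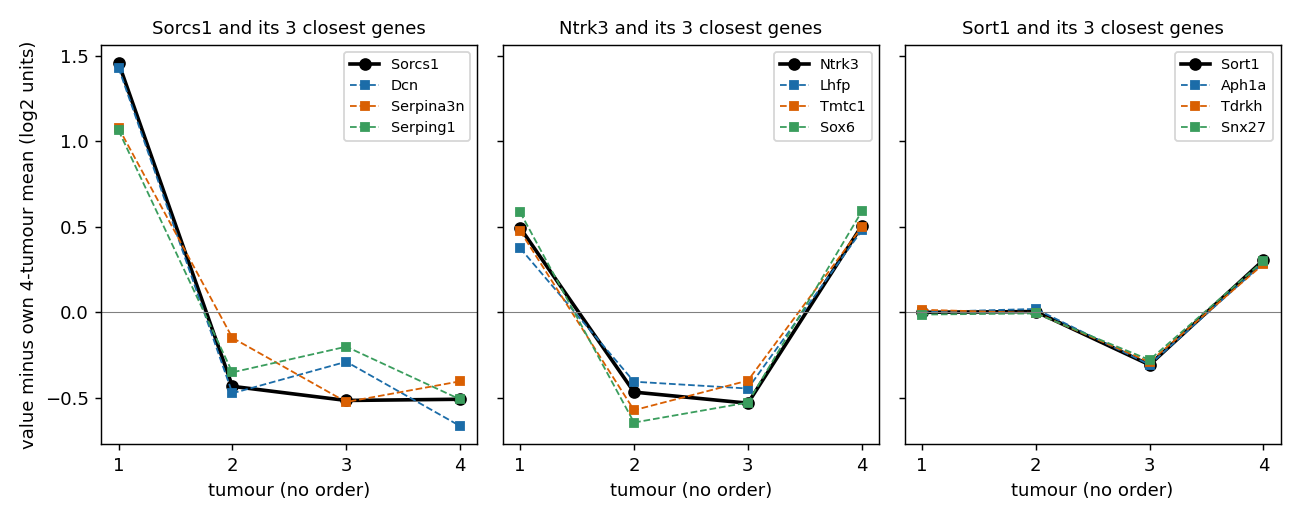
Values of Sorcs1, Ntrk3 and Sort1 and of the 3 detected genes closest to each, every gene centred on its own 4-tumour mean (log2 units); lines join the values of a gene and imply no order of tumours. Dcn follows the peak of Sorcs1 in tumour 1, and Aph1a, Tdrkh and Snx27 lie almost on top of Sort1.

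Ngfr, the p75 receptor gene that marks neural crest and Schwann cells as well as neurons, was not detected. It measured 5.48, 5.13, 5.09 and 5.36 in tumours 1 to 4 (5.27 ± 0.19, SD, n = 4), and all 4 values were below the floor. The order of its tumours, with 1 and 4 above 2 and 3, was that of Ntrk3 apart from the order within the high pair. But the gap between the pairs was only 0.24, below the floor, and other genes with this order were not counted. Of the Schwann cell markers 3 of 9 were detected, against 40.5% of all genes, namely Fabp7, Gfra3 and Pmp22. Sox10, the defining factor of the lineage, measured 5.64 ± 0.19 (SD, n = 4) and was below the floor. Nradd, a p75-like receptor with a death domain, was detected at 7.46 ± 0.17 (SD, n = 4) and ran from 7.23 in tumour 4 to 7.62 in tumour 1.

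The promoter of Ngfr is shown because it carries the most GC boxes among the members' windows although its transcript was not detected. GC boxes were searched as GGGCGG (reverse CCGCCC), the element bound by Sp1, and occurred in 32.7% of all promoter windows. The window, chr11:95587699-95587948 on the minus strand, holds 4 matches, in capitals.
Ngfr promoter: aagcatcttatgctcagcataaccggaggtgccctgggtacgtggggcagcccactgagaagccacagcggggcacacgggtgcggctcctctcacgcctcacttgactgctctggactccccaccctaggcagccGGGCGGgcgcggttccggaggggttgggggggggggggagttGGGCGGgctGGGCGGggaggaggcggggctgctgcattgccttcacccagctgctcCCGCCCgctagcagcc
RefSeq windows were found for 6 of the 8 genes, 18 windows in all, and 9 of the 18 held a GC box. Several windows of 1 gene overlap and are not independent. The E-box CACGTG, the element that MYC proteins bind with MAX, was found in 6.02% of all windows and in 1 of the 18, which belongs to Ntf3. None of the 16 windows of Ntrk2, Ngfr, Bdnf, Sorcs1 and Cntfr held it, which says only that these letters are not in those 250 bases.

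Sorcs1, a sorting receptor of the sortilin family that moves membrane proteins between cell compartments, varied most among the members. It measured 8.42 in tumour 1 and 6.53, 6.45 and 6.46 in tumours 2, 3 and 4, a mean of 6.97 ± 0.97 (SD, n = 4). Tumour 1 exceeded the next tumour by 1.89 log2 units, while the other 3 lay within 0.08 of each other. Those 3 values were near background, with floors of single arrays at 6.14, 6.37 and 6.43 in tumours 2 to 4. The gap to the nearest tumour made up 0.958 of the range, above the 95% critical value of Dixon's ratio for 4 samples, which 3.83% of detected genes passed. A range as wide as its 1.97 was found in 0.445% of detected genes. Differences of 1 log2 unit between tumour 1 and another tumour were uncommon, occurring in 0.556% of detected genes against tumour 2, 1.47% against tumour 3 and 1.77% against tumour 4, and Sorcs1 passed it in all 3. Relative to detected genes, tumour 1 stood at 1.33 for Sorcs1, and tumours 2 to 4 stood between -0.48 and -0.43.

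The gene closest to Sorcs1 among 8988 was Dcn, decorin, a matrix proteoglycan and fibroblast marker, at a root mean square difference of 0.14. Dcn measured 8.26, 6.36, 6.55 and 6.17 in tumours 1 to 4. Its value in tumour 4 was below the floor of that array taken alone (6.43). Next were Serpina3n, a secreted protease inhibitor, at 0.24, and Serping1, the inhibitor of complement C1, at 0.26, and no gene came within 0.1. Serping1 measured 7.64 in tumour 1 but 6.22, 6.37 and 6.06 in tumours 2 to 4, near the floor of 6.17. Sorcs1 and these 3 genes lie on 4 different chromosomes in RefSeq, Sorcs1 on 19 and the others on 10, 12 and 2. Of 8 fibroblast markers 6 were detected and 5 of these 6 were highest in tumour 1, against 46.6% of all detected genes. The mean over the 6 was 8.24, 7.32, 7.56 and 7.06 in tumours 1 to 4. The remaining detected marker, Fbln1, was highest in tumour 2, at 8.89 against 8.76 in tumour 1. The markers Lum and Pdgfra were below the floor, with all 4 values of Lum between 3.76 and 4.11. Pdgfra was lowest in tumour 1, at 4.20. Among detected cell type markers, the macrophage marker Csf1r was next closest to Sorcs1 after Dcn, at 0.49. The fibroblast marker Col1a1 followed at 0.52. The part of fibroblasts or macrophages in the Sorcs1 value of tumour 1 was not tested. The 3 detected Schwann markers, of 9 measured, were highest in tumour 1 as well, against 46.6% of all detected genes. Their list mean was 9.35 in tumour 1 against 8.75, 7.97 and 8.69 in tumours 2 to 4. Fabp7 varied most of the 3, from 9.54 in tumour 1 to 6.49 in tumour 3. Sox10 was below the floor, and the part of Schwann cells was not tested either.

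The single RefSeq promoter window of Sorcs1, chr19:50678647-50678896 on the minus strand, is shown as that of the member with the widest range. It is 79.6% G and C and holds 2 GC boxes, in capitals.
Sorcs1 promoter: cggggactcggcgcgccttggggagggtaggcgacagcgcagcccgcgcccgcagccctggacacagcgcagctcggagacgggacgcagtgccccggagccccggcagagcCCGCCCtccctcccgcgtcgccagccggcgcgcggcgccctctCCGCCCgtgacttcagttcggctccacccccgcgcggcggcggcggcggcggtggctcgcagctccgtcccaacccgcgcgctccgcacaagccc
It held neither the E-box nor the CREB half-site. Of the other members of the sorting receptor family, Sort1 was detected, and Sorl1, Sorcs2 and Sorcs3 were below the floor, at 5.11 ± 0.33, 5.41 ± 0.11 and 5.59 ± 0.14 (SD, n = 4). In tumour 1 these 3 measured 5.40, 5.55 and 5.44, which was the highest of the 4 values for Sorl1 and Sorcs2 and the lowest for Sorcs3.

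**Figure D3:**
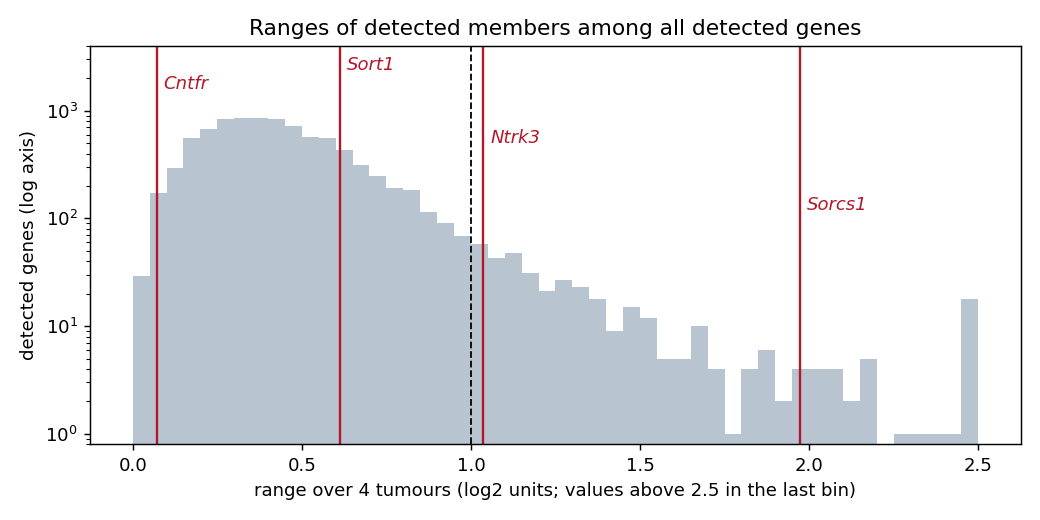
Histogram of the range over the 4 tumours (log2 units) of all 8989 detected genes, on a logarithmic count axis, with the 4 detected members as red lines and the 1 log2 unit threshold dashed. Sorcs1 (1.97) lies far in the upper tail, Ntrk3 (1.04) just past the threshold, Sort1 (0.61) inside the bulk and Cntfr (0.07) at its lower edge.

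Sort1 encodes sortilin, which binds proneurotrophins together with p75 and sorts proteins in the secretory pathway. It measured 8.53, 8.53, 8.22 and 8.83 in tumours 1 to 4 (8.53 ± 0.25, SD, n = 4). Tumour 4 was highest and tumour 3 lowest, and tumours 1 and 2 were equal to within 0.01. The range of 0.61 was not unusual, since 21.2% of detected genes had a range as wide. A dimmer probe set for Sort1 averaged 5.24 ± 0.22 (SD, n = 4), with all 4 values below the floor, and there tumour 2 was highest, at 5.45.

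The tumour differences of Sort1 were shared by much of its chromosome, a comparison added after its values were seen. Sort1 lies on chromosome 3 in RefSeq. Of the 167 detected genes within 0.1 log2 units of its pattern, 94 (56.3%) were on chromosome 3, which holds 4.85% of the detected genes that could be placed. The closest were Aph1a, a subunit of gamma-secretase, at 0.01, and Tdrkh, a Tudor domain protein gene, and Snx27, an endosomal sorting nexin, both at 0.02, all on chromosome 3. The median relative deviation of the 435 detected genes of chromosome 3 was -0.09, -0.08, -0.12 and 0.27 in tumours 1 to 4, and 93.1% of them were above the array's median deviation in tumour 4. For the other 19 chromosomes the median in tumour 4 lay between -0.04 and 0.02, and the share above between 41.2% and 55.6%.

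Sort1 itself stood at -0.12, -0.04, -0.22 and 0.39 relative to detected genes. With the chromosome 3 median subtracted it stood at -0.04, 0.04, -0.11 and 0.11, and its relative range of 0.61 became 0.22. Among the 20 nearest detected genes along the chromosome, 10 on either side in RefSeq order, 17 were highest in tumour 4, against 15.5% of all detected genes. The same subtraction left the ranges of Ntrk3 and Sorcs1 almost as they were, 1.10 and 1.09 for Ntrk3 on chromosome 7 and 1.81 and 1.81 for Sorcs1 on chromosome 19. DNA copy number was not analysed here.

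**Figure D4:**
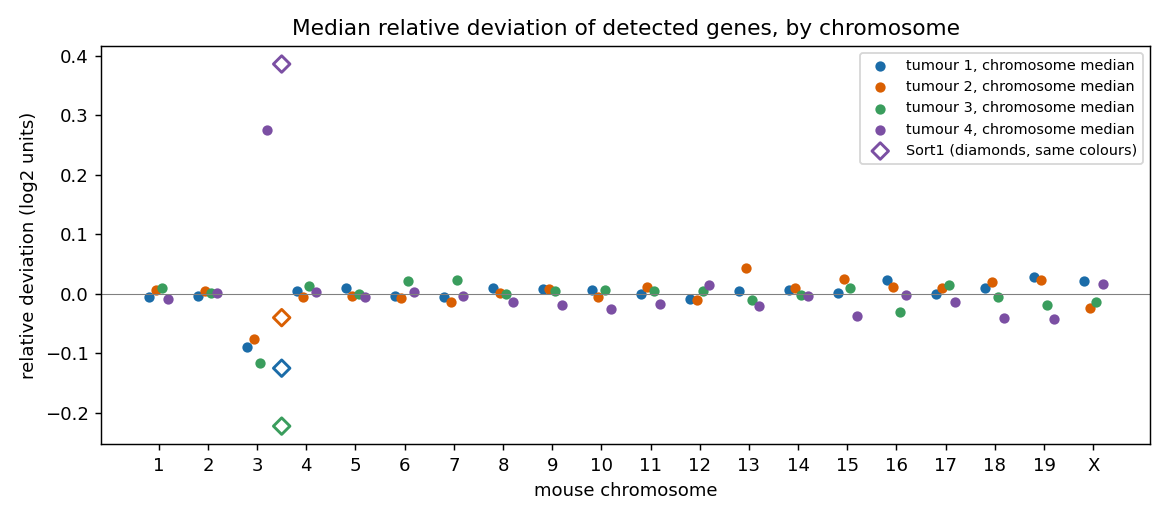
Median relative deviation (log2 units) of the detected genes of each mouse chromosome in the 4 tumours (dots), with Sort1 as diamonds beside chromosome 3. Chromosome 3 stands at 0.27 in tumour 4, and from -0.12 to -0.08 elsewhere, while every other chromosome lies within 0.05 of 0 in each tumour; Sort1 lies highest in tumour 4 as well.

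Cntfr, the chain that binds ciliary neurotrophic factor and is anchored in the membrane of neurons, was detected with little variation. It measured 9.02, 9.04, 9.01 and 8.97 in tumours 1 to 4 (9.01 ± 0.03, SD, n = 4). Its range was 0.07, and a narrower range was found in 0.957% of detected genes. Part of this constancy follows from the scale used, since relative to detected genes Cntfr stood at -0.11, -0.02, 0.09 and 0.04, a range of 0.20, and the sign of its deviation turned in tumours 1, 2 and 4. On either scale all 4 tumours carried the transcript at close to the same level.

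The signalling partners of Cntfr were detected too. Lifr, the LIF receptor, measured 7.59 ± 0.27, Il6st, which encodes gp130, 7.79 ± 0.25, Jak1 8.03 ± 0.23, and Jak2 6.87 ± 0.21 (SD, n = 4). Lifr and Il6st were highest in tumour 1, at 7.96 and 8.13, and lowest in tumour 3, at 7.34 and 7.53. Stat3, the transcription factor at the end of this route, differed, with its highest value in tumour 3 (8.82) and its lowest in tumour 4 (8.26). Of the ligands of the family, Ctf1, cardiotrophin, was detected at 6.44 ± 0.09 (SD, n = 4), close to the floor, while Lif (5.58 ± 0.18) and Clcf1 (5.56 ± 0.20) were below it. Osmr and Il6ra, receptor chains for related cytokines, were also below it, at 4.98 ± 0.21 and 5.54 ± 0.22 (SD, n = 4). Socs3, a feedback inhibitor induced by STAT3, measured 5.62 ± 0.14 (SD, n = 4) and was below the floor in all 4 tumours. In this list 7 of 12 measured genes, Cntfr among them, were detected, against 40.5% of all genes, and 0 of the 7 had a range of 1 log2 unit, against 4.26% of detected genes.

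Most measured genes of the pooled neurotrophin and CNTF pathway lists were detected, and their ranges were close to those of detected genes in general. Over the pathway lists without the members, 50 of 77 measured genes (64.9%) were detected, against 40.5% of all genes, and 3 of the 50 reached a range of 1 log2 unit, against 4.26% of all detected genes. The median range was 0.40, against 0.41 in all detected genes. Of the Trk adaptors and effectors alone 19 of 20 were detected, against 40.5% of all genes, with a median range of 0.38. Nedd4l, a ubiquitin ligase of membrane receptors, varied most, being highest in tumour 1 (7.74) and lowest in tumour 4 (6.59). Shc1, the adaptor that links Trk receptors to RAS, ran from 8.30 in tumour 2 to 8.99 in tumour 4 and lies on chromosome 3 like Sort1. Kidins220, a scaffold and substrate of Trk receptors, measured 9.37, 8.76, 8.85 and 9.22 in tumours 1 to 4. The adaptors Sh2b2 (7.25 ± 0.03) and Gab2 (9.96 ± 0.03, SD, n = 4) were the most constant.

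Partners of p75 were detected although Ngfr was not. Of 14 measured, 10 lay above the floor, against 40.5% of all genes. None of the 10 had a range of 1 log2 unit, which is close to the 4.26% of all detected genes. Traf4, an adaptor of the TNF receptor family, ran from 8.85 to 9.30, Ndn, the neuronal growth suppressor necdin, from 8.96 to 9.40, and Prdm4, a zinc finger protein that binds p75, from 7.89 to 8.31. Irak1 (7.40 ± 0.06) and Traf6 (6.43 ± 0.07, SD, n = 4), kinase and ligase of a shared signalling complex, differed least. Of the enzymes that cut proneurotrophins 3 of 9 were detected, against 40.5% of all genes, namely the proprotein convertases Furin (6.88 to 7.24), Pcsk6 (6.63 ± 0.27) and Pcsk7 (6.40 ± 0.13, SD, n = 4). All 3 were highest in tumour 1, as were 46.6% of all detected genes. Of the receptor trafficking genes 7 of 8 were detected, against 40.5% of all genes. Rab5a, an early endosome GTPase, was highest in tumour 1 (7.83) and lowest in tumour 4 (6.90), Dnm1, the neuronal dynamin, was highest in tumour 3 at 9.34, and Coro1a, an actin-binding protein of signalling endosomes and of leukocytes, was lowest there at 6.49.

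Among genes that neurotrophins are known to induce, the most variable ranked the tumours otherwise than Ntrk3. Of 10 measured, 4 were detected, a share near the 40.5% of all genes, and 2 of these had a range of 1 log2 unit, against 4.26% of all detected genes. Vgf, a secreted neuropeptide precursor, measured 8.14, 7.58, 8.67 and 7.69 in tumours 1 to 4. Nr4a1, an immediate early nuclear receptor, measured 8.05, 7.71, 8.40 and 6.89. Both were highest in tumour 3, where Ntrk3 was lowest, and both were lower in tumour 4, where Ntrk3 was highest. The other tumours did not continue this opposition. In tumour 1, where Ntrk3 was also high, both exceeded their values in tumours 2 and 4. In tumour 2, where Ntrk3 was also low, Vgf had its lowest value. Klf10 (6.27 ± 0.25) and Arc (6.41 ± 0.13, SD, n = 4) lay close to the floor. Other stimuli also induce these genes.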

How the data were processed

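Total RNA from 4 primary tumours was hybridised to 1-colour Affymetrix arrays, per the labels. The table the authors deposited holds 41345 probe sets, each with 1 value for every tumour. RMA and Partek were used per the submitters' processing notes, which give no versions. RMA corrects background, equalises the arrays and summarises probes, which compresses low signals. The authors' deposited values, made with RMA, run from 2.47 to 13.6 and are taken as log2, although no source names their log base. No genome build is given in the sources used here.

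Genes were named from the platform annotation (23521 probe sets with 1 gene, 1814 with several, left out), with symbols updated through the RefSeq table of GRCm38.p6. Tables were computed in Python 3.11.15 with pandas 2.3.3. With 1 group there is no test and no p-value. How the range rule and Dixon's ratio behave at the noise level of these arrays was not tested. At most 0.215% of values were identical between any 2 arrays. Named genes were the members, up to 3 detected genes per list with the widest and 2 with the narrowest range, the undetected genes of the ligand and receptor lists, and the 3 genes closest to each detected member with a range of at least 0.5; genes outside this rule are Jak1, Jak2, Xist, Sox10, Lum and Pdgfra, chosen after their values were seen. Members, lists and motifs were chosen with earlier results of these data known. The 3 promoter motifs described were chosen after these and 5 others had been searched. A planned comparison of protein sequences was not run. The number of arrays limits precision.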

Additional observations from a re-analysis of the deposited data

Results flagged for a closer look

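Sorcs1 stood out because 1 tumour lay far from the others: in tumour 1 it measured 8.42, and the gap to the nearest tumour was 0.958 of the range, past the 95% critical value of Dixon's ratio for 4 samples. Gab2, an adaptor of receptor tyrosine kinases, passed the same value with a ratio of 0.840, tumour 2 being highest, but all 4 values lay within 0.08 log2 units. Socs3, below the background floor, passed it with 0.895, tumour 4 being lowest at 5.40 against 5.67 to 5.71 in the others. Chance alone puts about 1 group in 20 past this value, and 3.83% of detected genes passed it.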

How the results depend on the processing

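The number of detected members, 4 of 7, depended on the background floor: raised to the 99th percentile of the receptor genes (7.14) it gave 2 (Sort1 and Cntfr), and lowered to their median (4.01) it gave 7. With each array's own floor required in every tumour, an alternative added after seeing the data, it was 3, without Ntrk3. It was 4 with the mean of probe sets, further quantile normalization, arrays centred on detected genes and without any 1 tumour. Among the measured members only Sort1 has more than 1 probe set, and centring barely moves a 4-tumour mean. The probe set and centring alternatives could therefore hardly change this count. The number of variable members ranged from 1 to 2 when a tumour was left out. Without tumour 1 the range of Sorcs1 was 0.08, and without tumour 3 that of Ntrk3 was 0.97. With a threshold of 0.5 log2 units 3 members were variable, against 35.1% of detected genes. The mean of Sort1 was 6.89 over both probe sets and 5.24 in the dimmer one. Of 84 deviations recomputed under another scaling, normalization or probe set rule, 9 changed sign, all of size 0.04 or less before recomputing. Afterwards some were larger: Cntfr in tumour 1 went from 0.01 to -0.11 relative to detected genes. For members with 1 probe set the probe set rule returns the same value, so those deviations could not change. Of the 77 pathway genes, 34 passed the stricter floor and 49 passed after further quantile normalization, against 50. No paired analysis was possible because all tumours belong to 1 group. Signal close to background limits Bdnf, Ntrk2, Ngfr, Ntrk3 in tumours 2 and 3, and Sorcs1 in tumours 2 to 4.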
